A study of Caenorhabditis elegans with 13 samples.

Results

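MicroRNAs of whole Caenorhabditis elegans under intermittent fasting (IF) were compared with those of worms fed ad libitum (AL) on the same adult days. The comparison used 8 of the 13 small RNA libraries of the study: 4 IF and 4 AL libraries, 1 of each diet on adult days 4, 6, 8 and 10, which were set against each other within a day. The AL library of day 2 has no IF partner and was left out. All worms were of the N2 strain, the wild-type laboratory strain, and no other genotype, allele or agent is named for either group; the labels mark the groups only as Al and IF and do not describe the fasting schedule or the food. Separate cultures are not recorded for the libraries, so the errors below measure how much a difference varied between days and between these libraries, which may in part be technical. The tests also pool that spread over miRNAs, so an error is not that of a single miRNA alone. The remaining diet of the study, CR, contributed its 4 libraries of the same days to the estimate of the spread and to the choice of which miRNAs were tested. The libraries held 3174231 to 5143918 miRNA reads in AL and 2639586 to 4128030 in IF, over 434 mature miRNAs. Of these, 212 had 10 or more reads in 4 of the 12 libraries in the model and were tested, and 194 of them also did so within the 8 AL and IF libraries. The other 18 were tested only because CR libraries counted too, and 4 of them are among the calls below, miR-2208a-5p, miR-4809-3p, miR-70-5p and miR-247-3p. For miR-2208a-5p and miR-4809-3p no AL library had 10 reads. Both entered through IF and CR alone, so the filter favoured a rise in them. The 222 miRNAs not tested held 0.00721% of the reads of the 8 libraries, and 78 of them had no read there. Levels are given as CPM, reads scaled to a library of 1000000 after correction by trimmed means of M values (TMM), which balances the libraries on the bulk of their miRNAs; since libraries differ in makeup, the CPM of a library need not add up to that total.

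A mature miRNA is cut from either the 5p or the 3p arm of a hairpin precursor, is loaded into an Argonaute protein and lowers the output of messenger RNAs that pair with its seed, the bases near its 5′ end. In worms, miRNAs with the same seed form families that often act redundantly, such as the let-7 family of developmental timing, the mir-35 family of oocytes and embryos and the abundant mir-58 family, related to bantam of flies. Several miRNAs, among them lin-4, mir-71 and mir-228, alter lifespan when lost. The samples are labelled as whole body, and the miRNAs known from oocytes and embryos, muscle, intestine, glia and neurons were all read. Summed over their tested members, the embryo, glia and muscle miRNAs reached at least 2289 CPM in every library, the intestinal ones at least 503 and the neuronal ones at least 7.80 CPM. In such bulk samples, fewer cells of a type and less RNA per cell cannot be told apart.

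In IF, miR-37-3p, miR-49-3p and called miRNAs of a compact cluster on chromosome X stood above AL on every day, while the 2 most abundant miRNAs, miR-58a-3p and miR-48-5p, and the rarer miR-70-3p and miR-77-3p stood below it. In all, 30 of 212 miRNAs passed edgeR's quasi-likelihood test with day as a block at an adjusted p under 0.05, a background of 14.2%, with 18 higher in IF (8.49%) and 12 lower (5.66%). The log2 fold changes of those called ranged from 1.07 to 2.73 among the rises and from -2.57 to -1.05 among the falls, against a median of 0.03 over all tested; values in parentheses below are log2 fold changes of IF minus AL ± SE unless named otherwise. Of the 12 falls 6 had an AL mean over 1000 CPM, whereas 8 of the 18 rises had an AL mean under 10 CPM. Of the rises, 9 had fewer than 10 reads in at least 1 AL library, and their fold changes rest on few reads. With total reads as the scaling in place of TMM the median of all miRNAs moved to 0.45 and the calls to 37 higher and 5 lower. With each of the 8 libraries left out in turn, the count was lowest without the AL library of day 6, at 7; 17 passed without the IF library of day 6, 15 without that of day 8 and 6 without all day 6 libraries. Removing the AL library of day 6 ended 23 of the 30 calls. The 5 miRNAs miR-37-3p, miR-49-3p, miR-4807, miR-2220-3p and miR-77-3p passed under each of the 3 other scalings, both other tools and each single library or day left out. They did not pass with day as a number or with no day block, where 0 miRNAs passed.

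**Figure D1:**
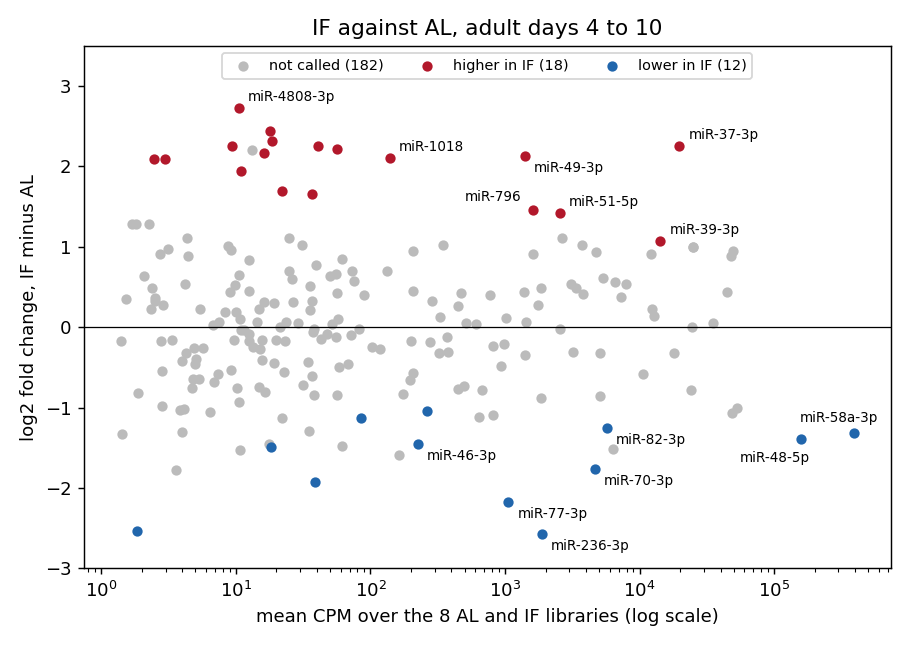
Log2 fold change of IF minus AL against the mean level over the 8 libraries in CPM (log scale) for the 212 tested miRNAs, 1 point each. Of these, 18 are higher (red) and 12 lower (blue) in IF by edgeR at an adjusted p under 0.05; the 2 most abundant miRNAs, miR-58a-3p and miR-48-5p, are both among the lower ones.

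The mir-35 family, whose members are made in oocytes and embryos and are needed for embryonic development, held the most abundant of the rises. The hairpins mir-35 to mir-41 lie together on the plus strand of chromosome II (WBcel235, 11537608 to 11538404), and that of mir-37 (11537833 to 11537930) lies opposite an intron of Y62F5A.9. miR-37-3p stood at 6609, 7070.4, 3959 and 10802 CPM in AL on days 4, 6, 8 and 10 and at 44985, 29374, 21544 and 33858 CPM in IF on the same days. All 4 IF values lay above all 4 AL values, and the level in IF was highest on day 4. The group means were 7110.1 ± 2817 CPM in AL and 32440.2 ± 9789.8 CPM in IF (SD, n = 4 days each), and the log2 fold change was 2.26 ± 0.35 (SE; edgeR adjusted p = 0.00165). miR-37-3p also took a larger part of its own family, a quantity that no scaling between libraries can change. Of the reads of the 8 tested family members it held 3.92, 7.08, 10.2 and 14.5% in AL on days 4, 6, 8 and 10 and 10.9, 15.3, 23.05 and 31.1% in IF. Its share was thus higher in IF on each day and was higher on each later day in both diets. miR-39-3p stood at 12344, 11492, 2327 and 8687 CPM in AL and at 38984, 23919.5, 5300.0 and 10900.5 CPM in IF, higher in IF on each day with the smallest difference on day 10 (log2 fold change 1.07 ± 0.33, edgeR adjusted p = 0.0416). 6 of the 8 libraries, left out singly, ended the call of miR-39-3p (edgeR adjusted p up to 0.153, without AL day 6).

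The other members of the family did not pass. miR-35-3p, the most abundant member on days 6, 8 and 10, stood at 28923, 38531, 24346 and 40448 CPM in AL and 59647, 96974, 54816 and 48706 CPM in IF, so that its 4 IF values lay above its 4 AL values, yet it missed the threshold (0.95 ± 0.32, edgeR adjusted p = 0.0624). miR-42-3p had a value of 1.02 ± 0.36 and miR-40-3p one of 0.41 ± 0.33, both higher in IF on 4 of 4 days. miR-36-3p did not follow them: it stood at 95654, 11111, 709.6 and 3054 CPM in AL and 235790.0, 7459.6, 1436 and 2846 CPM in IF, far higher on day 4 than later in both diets, and was above AL on 2 of 4 days. In all 2 of 8 members were called, both higher, with 7 of 8 values above 0 and a median of 0.69; DESeq2 called 4 of 8, adding miR-35-3p and miR-42-3p. Over all 212 tested miRNAs, edgeR called 18 higher and DESeq2 called 25. Of the edgeR values 109 were above 0, with a median of 0.03. Summed over the 8 members, the level was 168493, 99849.8, 38752 and 74304 CPM in AL and 411994, 192404, 93469 and 108816 CPM in IF. The sum was higher in IF on each day although the ranges of the diets overlapped. These miRNAs mark oocytes and embryos, and the part that a different number of such cells in the sampled worms could have in the result was not tested. Members of the family resemble each other in sequence, and no source used here says how reads that match several of them were assigned.

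miR-49-3p, listed with miR-83 as a relative of vertebrate miR-29, comes from an intergenic hairpin on chromosome X (WBcel235, 9989282 to 9989378, plus strand) and was highest on day 10 in both diets. miR-49-3p stood at 265, 136, 344 and 1354 CPM in AL and at 829.8, 556, 2030.2 and 5697 CPM in IF on days 4, 6, 8 and 10. The difference held a narrow range, with log2 ratios of 1.64, 2.03, 2.56 and 2.07 on those days, even though the level itself was much higher on day 10 than on day 6 in each diet. The log2 fold change was 2.13 ± 0.40 (edgeR adjusted p = 0.00261). Its partner miR-83-3p is rare, with 107, 125, 69 and 475 reads in AL and 9, 72, 102 and 148 in IF, and miR-49-3p made up 89.9, 84.1, 91.3 and 92.4% of the reads of the pair in AL and 99.6, 97.6, 98.2 and 99.5% in IF.

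Further rises came from miRNAs at distant places in the genome. miR-51-5p, of a family that is essential for embryonic development, stood at 332, 749, 3234 and 544 CPM in AL and 1305, 1529, 11964 and 775 CPM in IF; the peak on day 8 was present in both diets, and the difference was smallest on day 10 (1.42 ± 0.37, edgeR adjusted p = 0.019). It was the 1 of 6 tested members of the mir-51 family that edgeR and limma-voom called, and all 6 values lay above 0 with a median of 0.73. For comparison, edgeR called 18 of all 212 tested miRNAs higher (8.49%), and 109 values lay above 0 with a median of 0.03. miR-52-5p (0.92 ± 0.36) and miR-56-3p (0.94 ± 0.33) came next in that family, each higher in IF on 4 of 4 days, and DESeq2 called both of them too. Of all 212 tested miRNAs, DESeq2 called 25 higher. miR-796 showed the same day 8 peak as miR-51-5p, at 235.3, 357, 2629 and 562 CPM in AL and 734, 1964, 5524 and 987 CPM in IF (1.46 ± 0.42, edgeR adjusted p = 0.0301). miR-254-3p, from an intron of the guanylyl cyclase gene gcy-9, was rarer, with 43, 61, 31 and 6 reads in AL and 53, 252, 168 and 34 in IF (1.69 ± 0.39, edgeR adjusted p = 0.0108). miR-4816-3p, from an intron of T09B4.2, was the 1 called rise with a hairpin on chromosome I; its 31, 119, 48 and 69 reads in AL and 186, 380, 93 and 228 in IF gave CPM ranges that did not overlap (1.65 ± 0.47, edgeR adjusted p = 0.028). Without the AL library of day 6 none of miR-51-5p, miR-796, miR-254-3p and miR-4816-3p passed edgeR's test, with adjusted p up to 0.153 over single libraries left out; for these 4 miRNAs 2 to 6 of the 8 libraries ended the call.

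miR-247-3p and miR-797-5p come from neighbouring hairpins on the plus strand of chromosome X (WBcel235, 4756971 to 4757197), and both were called higher. They belong to different families, mir-44 and mir-2. miR-797-5p had 11, 10, 9 and 48 reads in AL and 40, 147, 27 and 372 in IF (2.44 ± 0.54, edgeR adjusted p = 0.00962). miR-247-3p had 2, 2, 25 and 2 reads in AL and 3, 6, 194 and 9 in IF, so that nearly all of its reads came from day 8 and the other days rest on fewer than 10 reads each (1.95 ± 0.56, edgeR adjusted p = 0.0301). In their families the other members had no call. miR-61-3p of the mir-44 family had 0.48 ± 0.32, and miR-44-3p, whose reads are shared with miR-45-3p, had 0.99 ± 0.55. Also rare was miR-2208a-5p, with 1, 2, 4 and 5 reads in AL and 2, 22, 20 and 20 in IF (2.10 ± 0.53, edgeR adjusted p = 0.0163). No AL library had 10 reads of miR-2208a-5p, so it was tested through IF and CR alone and the filter favoured its rise. Without the AL library of day 6 all 3 missed the threshold, with edgeR adjusted p = 0.0615 for miR-797-5p, 0.123 for miR-247-3p and 0.101 for miR-2208a-5p.

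The largest group of rises that share a place was the mir-4807 cluster, 11 hairpins within 7573 bp on the plus strand of chromosome X (WBcel235, 1872466 to 1880038), all outside protein-coding genes. Of its 9 tested miRNAs 8 were called higher in IF, against the background of 8.49%, and the median log2 fold change was 2.21. The called miR-4809-3p had fewer than 10 reads in each AL library and was tested through IF and CR alone, so the filter favoured its rise. miR-4921 and miR-4925, with 8 and 53 reads over the 8 AL and IF libraries, were too rare to be tested. On the rest of chromosome X, 5 of 67 tested miRNAs were called higher (7.46%). The cluster was picked out with earlier results of these data known, and its members lie too close together to count as independent of each other. All are rare: their summed level was 61.3, 66.1, 147 and 151 CPM in AL and 191, 499.7, 775 and 570.2 CPM in IF on days 4, 6, 8 and 10. The lowest IF sum thus lay above the highest AL sum.

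Within the cluster the members kept their own courses over the days. miR-2220-3p was even, with 34, 58, 34 and 87 reads in AL and 158, 421, 155 and 388 in IF (9.47, 11.9, 16.2 and 20.5 against 62.1, 80.6, 55.3 and 72.1 CPM; 2.26 ± 0.39, edgeR adjusted p = 0.00165). miR-4807 peaked on day 8 in both diets, at 12.8, 10.4, 32.8 and 13.4 CPM in AL and 41.6, 52.1, 236 and 50.2 CPM in IF (2.21 ± 0.37, edgeR adjusted p = 0.00165). In these 2 members the AL and IF values did not overlap. miR-1018, the most abundant member, stood at 28.96, 26.6, 71.4 and 76.4 CPM in AL and 49.1, 251, 343 and 271 CPM in IF, and its difference was small on day 4 (2.10 ± 0.53, edgeR adjusted p = 0.0163). miR-4808-3p had 2, 3, 3 and 29 reads in AL and 6, 13, 34 and 311 in IF, most of them on day 10, and the largest log2 fold change of all called miRNAs (2.73 ± 0.49, edgeR adjusted p = 0.00233). The similar hairpins of mir-4810a and mir-4810b differed in course. miR-4810b-3p peaked on day 8, with 4, 6, 43 and 4 reads in AL and 5, 43, 296 and 51 in IF (2.32 ± 0.56), while miR-4810a was lowest on that day, with 16, 28, 2 and 9 and 45, 110, 13 and 101 reads (2.26 ± 0.63). Both remaining called members were rare: miR-4923b had 6, 38, 3 and 64 reads in AL and 37, 312, 21 and 117 in IF (2.17 ± 0.66) and miR-4809-3p had 2, 2, 5 and 5 and 5, 12, 26 and 31 (2.10 ± 0.53). miR-4923a was the 1 tested member without a call. It had 6, 7, 0 and 62 reads in AL and 0, 119, 3 and 342 in IF, below AL on day 4, where no read was found in IF (2.20 ± 0.76, edgeR adjusted p = 0.0639); DESeq2 called it too. miR-4807, miR-2220-3p and miR-4808-3p passed with each single library left out, while the other 5 lost their call without 2 to 6 of the 8 libraries in turn, always including the AL library of day 6 and the IF library of day 8, with edgeR adjusted p up to 0.178.

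**Figure D2:**
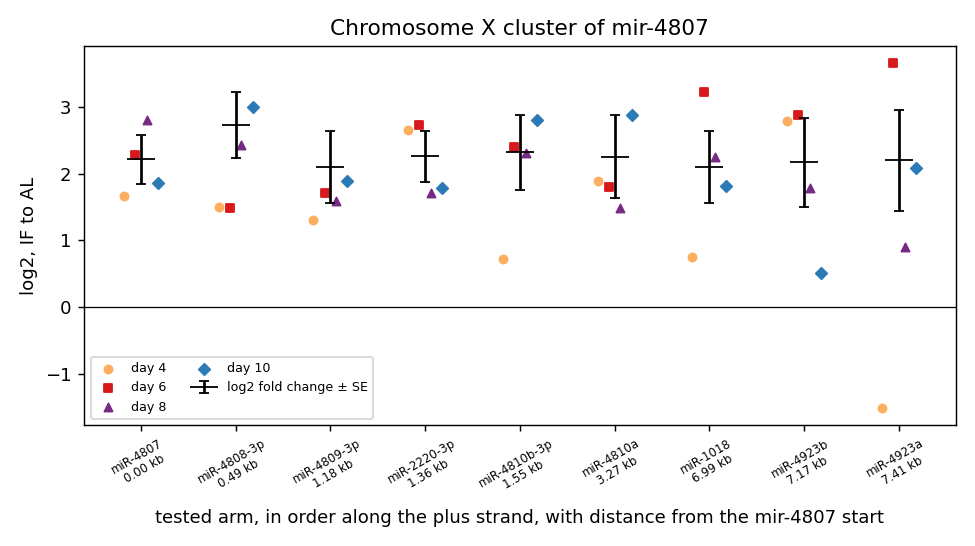
Log2 ratio of IF to AL on each adult day (coloured symbols) and fitted log2 fold change ± SE (black) for the 9 tested miRNAs of the chromosome X cluster, in order along the plus strand with their distance from the mir-4807 start in kb. All points lie above 0 except that of miR-4923a on day 4, which rests on 6 reads in AL and 0 in IF.

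Among the falls, miR-58a-3p carried the most reads. Its hairpin lies in an intron of Y67D8A.2 on chromosome IV (WBcel235, 3233254 to 3233350, plus strand). It made up 66.5, 31.4, 24.03 and 48.5% of the reads in AL and 36.01, 13.8, 11.5 and 41.1% in IF on days 4, 6, 8 and 10. miR-58a-3p stood at 952740.0, 204002, 506711 and 557434 CPM in AL and at 373434, 84588, 170153 and 277704 CPM in IF, lower in IF on each day by log2 ratios between -1.57 and -1.01. The ranges of the diets overlapped because AL on day 6 lay below IF on days 4 and 10, while the difference within a day varied little (-1.31 ± 0.31, edgeR adjusted p = 0.0115). miR-82-3p of the same family, from an intron of gid-2, stood at 9088, 6118, 7358 and 8358 CPM in AL and 5880.2, 3609, 1686 and 3526 CPM in IF, with all IF values below all AL values (-1.26 ± 0.38, edgeR adjusted p = 0.0405). With total reads as the scaling miR-82-3p had -0.79 and no longer passed. Without the IF library of day 6 the call of miR-58a-3p was lost (edgeR adjusted p = 0.0567), and 6 of the 8 libraries, left out singly, ended the call of miR-82-3p (edgeR adjusted p up to 0.138, without AL day 8). miR-80-3p (-1.06 ± 0.37) and miR-81-3p (-0.86 ± 0.33) were also lower in IF on 4 of 4 days without an edgeR call. By edgeR the family thus had 2 of 4 tested members called, both lower, against the background of 5.66%, and a median of -1.16, while DESeq2 called 4 of 4 and limma-voom 2. Over all 212 tested miRNAs DESeq2 called 26 lower and 25 higher. miR-58b-5p had 7 reads in the 8 libraries and was not tested. Of the family's reads miR-58a-3p held 95.4, 68.4, 78.99 and 92.2% in AL and 93.7, 56.1, 82.4 and 91.96% in IF, a share that was lower in IF on days 4, 6 and 10.

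A member of the let-7 family that times larval development, miR-48-5p, was next in abundance and was lower in IF on each day. Its level was 31267, 36718, 702322 and 58858 CPM in AL and 7480.5, 16196, 389469 and 22032 CPM in IF on days 4, 6, 8 and 10. Day 8 stood far above the other days in both diets, and the difference between diets was smallest on that day (-1.39 ± 0.32, edgeR adjusted p = 0.0108). Without the AL library of day 6 the call of miR-48-5p was lost (edgeR adjusted p = 0.0557). Of the reads of the 4 family members it held 63.6, 71.9, 91.05 and 47.1% in AL and 16.6, 37.6, 90.6 and 43.1% in IF, so its part of the family was also lower in IF on each day, by the most on day 4 and by little on day 8. let-7-5p itself, which controls the larval-to-adult switch, averaged 2286 ± 528 CPM in AL and 1416 ± 967 CPM in IF (SD, n = 4 days) and did not pass edgeR's test (-0.89 ± 0.36, edgeR adjusted p = 0.109), though it did pass that of DESeq2. miR-84-5p had 0.06 ± 0.42, a value whose sign changed with the setting. In the family 1 of 4 was called, lower in IF, and the median was -0.42. Over all 212 tested miRNAs edgeR called 12 lower (5.66%) and 30 in either direction (14.2%), with a median of 0.03.

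miR-77-3p fell on all days, by more on days 4 and 6. From an intergenic hairpin on chromosome II (WBcel235, 12519268 to 12519367, plus strand), it stood at 1381, 3329, 250.3 and 2058 CPM in AL and at 188, 567, 82.5 and 625 CPM in IF. The level dropped on day 8 in both diets, and the log2 ratios were -2.87, -2.55, -1.59 and -1.72 (-2.18 ± 0.36, edgeR adjusted p = 0.00165). miR-70-3p, from an intron of pmp-5, fell chiefly on day 4. It stood at 9183, 10816, 2994 and 5521 CPM in AL and 676, 3779.7, 1893 and 2151 CPM in IF (-1.77 ± 0.44, edgeR adjusted p = 0.0163). Its rare 5p arm moved the same way, with 16, 4, 15 and 3 reads in AL and 0, 2, 3 and 1 in IF (-2.53 ± 0.68, edgeR adjusted p = 0.0216); mir-70 was the 1 hairpin with a call for both arms. With total reads as the scaling, miR-70-3p had -1.29 (edgeR adjusted p = 0.0513) and miR-70-5p had -2.10, and neither passed. Without the AL library of day 6 the call of miR-70-3p was lost (edgeR adjusted p = 0.0635), and 3 of the 8 libraries, left out singly, ended the call of miR-70-5p (edgeR adjusted p up to 0.0897, without IF day 8).

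miR-236-3p, the worm relative of miR-8 of flies and miR-200 of vertebrates, differed mainly on the early days. Its level was 3781, 2339.8, 4980.0 and 182 CPM in AL and 209, 223, 3254 and 115.1 CPM in IF. IF held only a small part of the AL level on days 4 and 6 and most of it on days 8 and 10 (-2.57 ± 0.66, edgeR adjusted p = 0.0166). miR-46-3p and miR-47-3p, the 2 members of the mir-46 family, both fell. miR-46-3p stood at 199, 801, 125 and 231 CPM in AL and 70.3, 211, 70.3 and 84.01 CPM in IF (-1.45 ± 0.32, edgeR adjusted p = 0.00962), and miR-47-3p at 78.2, 159, 110.4 and 113 and 52.3, 74.3, 68.6 and 29.00 CPM, where the diets did not overlap (-1.12 ± 0.35, edgeR adjusted p = 0.0416). miR-60-3p, a miRNA of the intestine, stood at 323, 217, 101 and 775 CPM in AL and 218, 60.1, 59.98 and 364 CPM in IF (-1.05 ± 0.32, edgeR adjusted p = 0.0416). The 3 intestinal miRNAs together summed to 931, 800.3, 2572 and 3187 CPM in AL and 503, 1526, 2744 and 2285 CPM in IF, with the order of the diets turning on days 6 and 8. On these days miR-240-5p alone held 1419 and 2450 CPM of the IF sums. miR-240-5p (0.06 ± 0.44) and miR-786-3p (-0.28 ± 0.38) were each higher in IF on 2 of 4 days, while miR-60-3p was lower on 4 of 4, so the 3 did not move together. With total reads as the scaling, miR-46-3p (-1.02), miR-47-3p (-0.69) and miR-60-3p (-0.61) no longer passed. Without the AL library of day 6 the call of miR-46-3p was lost (edgeR adjusted p = 0.0635), 5 of the 8 libraries, left out singly, ended the call of miR-236-3p (edgeR adjusted p up to 0.138, without AL day 6), 5 of the 8 libraries, left out singly, ended the call of miR-47-3p (edgeR adjusted p up to 0.153, without AL day 6) and 7 of the 8 libraries, left out singly, ended the call of miR-60-3p (edgeR adjusted p up to 0.178, without IF day 6).

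The remaining falls, miR-73-5p and miR-75-3p, come from a cluster of 3 hairpins on chromosome X (WBcel235, 2368765 to 2372549). miR-75-3p had 267, 260, 50 and 400 reads in AL and 59, 49, 28 and 123 in IF, and its CPM did not overlap between diets (-1.92 ± 0.41, edgeR adjusted p = 0.00788). miR-73-5p had 38, 40, 162 and 25 reads in AL and 3, 8, 101 and 28 in IF (-1.50 ± 0.47, edgeR adjusted p = 0.0423). The opposite arms did not fall with them: miR-73-3p had 0.54 ± 0.48 and miR-75-5p had 0.51 ± 0.35, and of the 6 arms of the cluster 3 had values above 0. Without the AL library of day 6 the call of miR-75-3p was lost (edgeR adjusted p = 0.0557), and 6 of the 8 libraries, left out singly, ended the call of miR-73-5p (edgeR adjusted p up to 0.164, without IF day 6); with total reads as the scaling miR-73-5p had -1.03 and no longer passed.

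**Figure D3:**
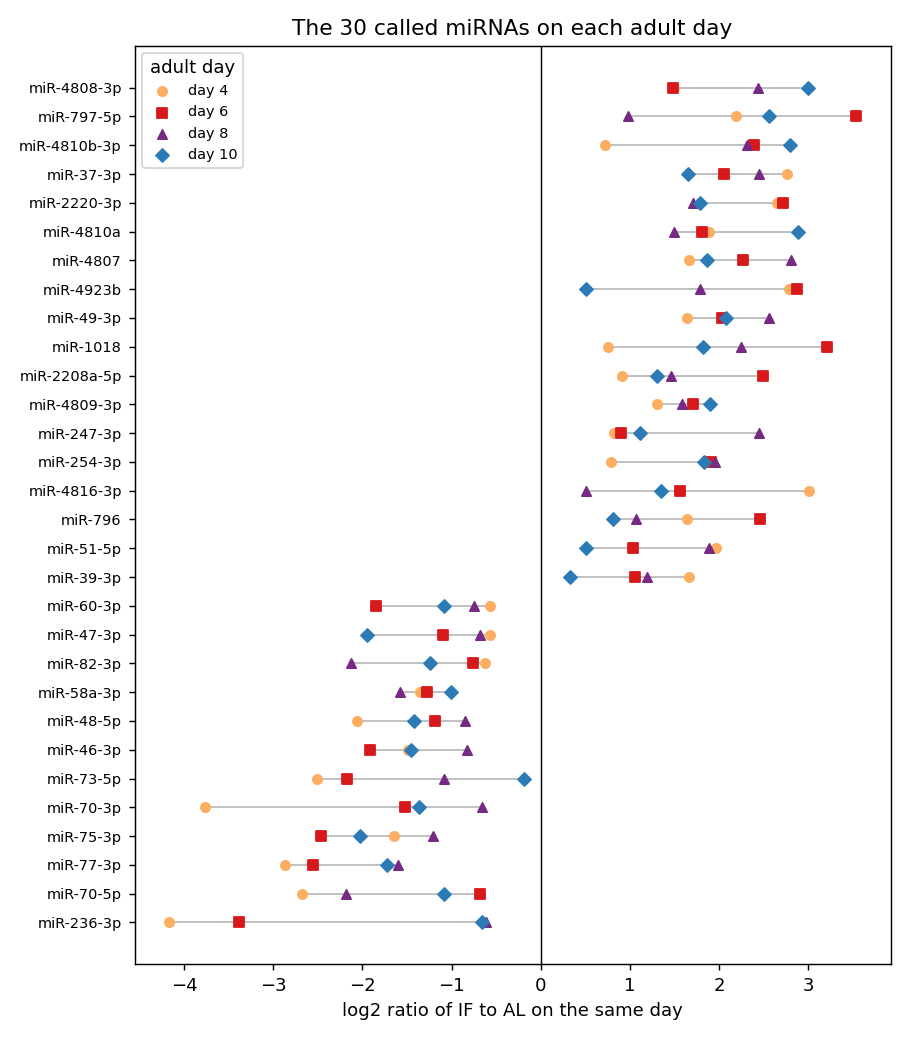
Log2 ratio of IF to AL on adult days 4, 6, 8 and 10 for each of the 30 called miRNAs, ordered by fold change; grey lines span the 4 days. All points lie on the side of their call, with the widest spread in miR-236-3p (-4.17 to -0.61).

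For each of the 30 called miRNAs the sign of the log2 ratio was that of the fold change on 4 of 4 days. The test favours such miRNAs, because the variation of a difference over the days enters its error. Over all tested, 39 were higher in IF on 4 of 4 days (18.4%) and 34 lower (16%). The levels themselves overlapped between diets for most: the 4 IF values lay wholly above or below the 4 AL values for 7 of the 30, against 8 of 212 in all (3.77%), the additional one being miR-35-3p. The levels of many of these miRNAs moved by more between days than between diets, as miR-48-5p and miR-49-3p show.

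The diets were farthest apart on day 4. The SD of the log2 ratio over the 212 miRNAs was 1.56, 1.22, 0.959 and 1.003 on days 4, 6, 8 and 10. On day 4, 57 miRNAs were over 2-fold higher and 50 over 2-fold lower in IF; on day 10 the numbers were 29 and 40. Among miRNAs with a mean of at least 100 CPM on the day, where few reads matter less, the SD was 1.74, 1.20, 1.03 and 0.923 on the 4 days. With 1 library of each diet on a day, these values have no replicate check. The largest fall on day 4 was that of miR-71-5p (-4.44), at 5604, 12025, 14890.4 and 3113 CPM in AL and 258, 6158, 7885 and 859 CPM in IF. Worms that lack this miRNA are short-lived. Over the 4 days it did not pass (-1.51 ± 0.66, edgeR adjusted p = 0.131). Neighbouring days had the most similar differences. As a description over 212 miRNAs that share the libraries of a day, Pearson's r between the log2 ratios was 0.59 for days 4 and 6 and 0.66 for days 8 and 10, but 0.20 for days 4 and 10, 0.30 for days 4 and 8, 0.47 for days 6 and 8 and 0.44 for days 6 and 10. Each day has its own AL and IF library, so these pairs share no library.

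A change of the IF minus AL difference over the days was tested as a difference between the slopes of IF and AL on day. The SE of a slope rests mostly on a spread pooled over all miRNAs. The 12 libraries tell little about the scatter of a single miRNA around its slopes, so the small adjusted p values below depend on that pooling. The smallest adjusted p belonged to miR-64-5p, of the mir-64 family. It stood at 921, 2647, 63825 and 75018 CPM in AL and at 5906, 4921, 29379 and 13076 CPM in IF, so that IF was the higher diet on days 4 and 6 and the lower one on days 8 and 10. Its log2 ratios were 2.68, 0.89, -1.12 and -2.52, a slope difference of -0.88 ± 0.15 log2 units per day (edgeR adjusted p = 2.18e-06). miR-45-3p and miR-44-3p, counted from the same reads, were higher in IF on days 4, 6 and 8 and lower on day 10, with log2 ratios of 2.66, 2.12, 0.85 and -0.75 and a slope difference of -0.57 ± 0.14 (edgeR adjusted p = 0.00244). miR-241-5p of the let-7 family ran from 1.97 on day 4 to -2.02 on day 10 (-0.62 ± 0.16), and the rare miR-65-3p from 2.04 to -1.78 (-0.75 ± 0.20).

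Other miRNAs stood lower in IF on days 4 and 6 and came closer to AL or passed it later. miR-239a-5p, of a family tied to stress and lifespan, stood at 30916, 26053, 1690.5 and 1789.9 CPM in AL and 3599, 14806, 2909 and 2488 CPM in IF. It was lower in IF on days 4 and 6 and higher on days 8 and 10, a slope difference of 0.61 ± 0.15 log2 units per day (edgeR adjusted p = 0.00244). miR-67-3p had log2 ratios of -1.84, -0.42, 1.29 and 1.59 (0.60 ± 0.15), miR-236-3p of -4.17, -3.39, -0.61 and -0.66 (0.65 ± 0.14), miR-238-5p of -3.86, -2.54, 0.52 and 0.13 (0.76 ± 0.16) and miR-1829b-5p of -3.12, -1.81, -0.61 and 1.19 (0.73 ± 0.17). In all, 22 of 212 slopes differed by edgeR at an adjusted p under 0.05 (10.4%), 15 lower in IF (7.08%) and 7 higher (3.3%). The count depended on single libraries. Leaving out the AL library of day 4 gave 0 edgeR calls (23 slopes had an unadjusted p under 0.05), and the count was 5 without that of day 10, 10 without that of day 6 and 11 without that of day 8. For the IF libraries, 13 passed when day 4 was left out and 11 when day 10 was. In the last case the balance turned, to 10 higher and 1 lower, and 5 calls were shared with the 22; without the AL library of day 10 it was 4 higher and 1 lower, and without that of day 6 it was 6 higher and 4 lower. With total reads as the scaling, 13 passed, 5 lower and 8 higher, and miR-241-5p and miR-65-3p were no longer among them.

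**Figure D4:**
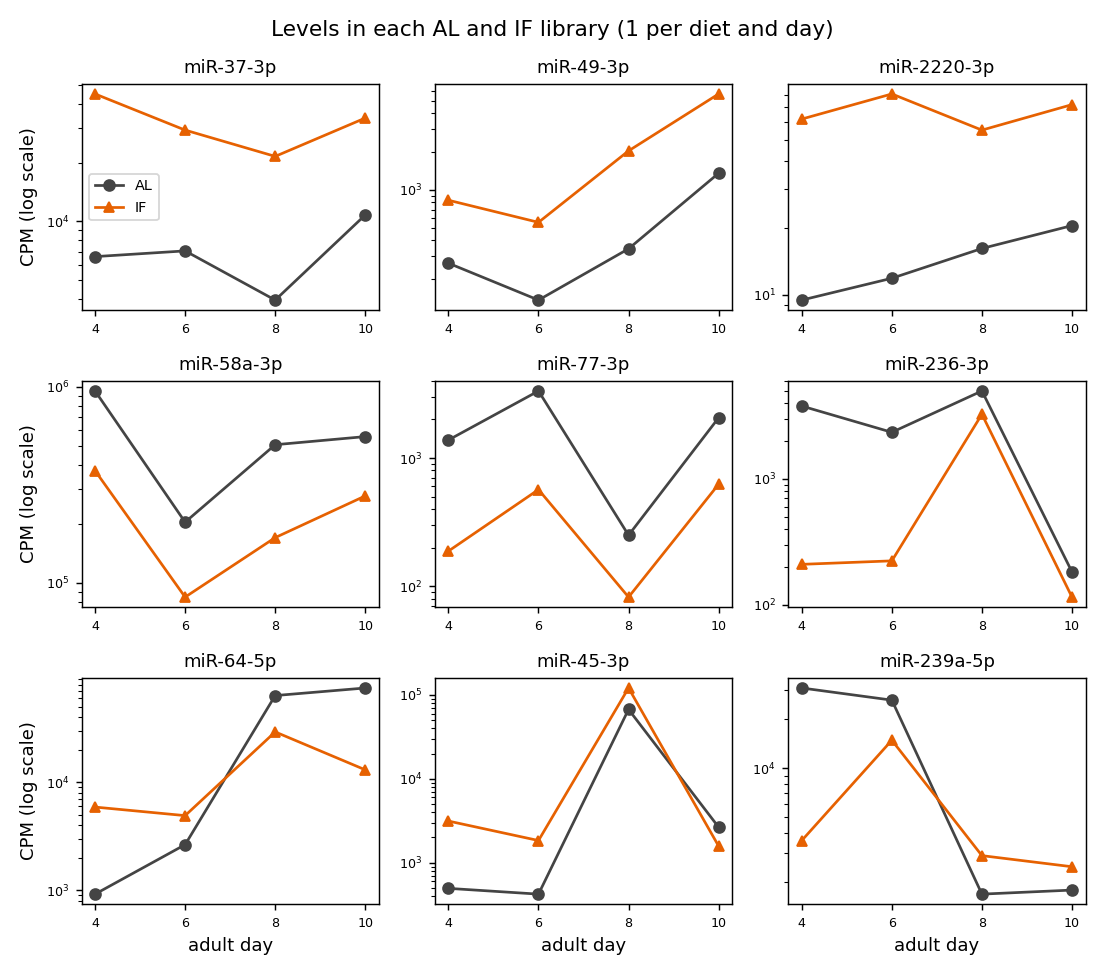
Level in CPM (log scale) of 9 miRNAs on adult days 4, 6, 8 and 10 in AL (dark grey circles) and IF (orange triangles), 1 library per point. The upper and middle rows hold called miRNAs, whose lines keep apart on each day, and the lower row holds miR-64-5p, miR-45-3p and miR-239a-5p, whose lines cross.

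The arms of a hairpin often did not move together. For 62 hairpins both arms were tested; the fold changes of the arms had the same sign in 29, and across hairpins their Pearson's r was 0.10 and Spearman's rho 0.08. Of the 16 hairpins with a called arm, the other arm had the same sign in 8. The ratio of 5p to 3p reads within a library, which does not depend on the scaling, was tested with limma on log2 values with 1 read added to each arm. It differed between IF and AL for 6 of 62 hairpins (9.68%), 3 higher (4.84%) and 3 lower (4.84%) in IF.

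In mir-75 the balance of the arms turned over. The log2 ratio of 5p to 3p reads was -0.98, -0.63, -0.97 and -1.39 in AL on days 4, 6, 8 and 10 and 1.15, 2.55, 1.23 and 0.53 in IF, so that the 3p arm led in all AL libraries and the 5p arm in all IF libraries (difference 2.36 ± 0.59, limma adjusted p = 0.0179). The arms had 135, 168, 25 and 152 and 267, 260, 50 and 400 reads in AL and 132, 291, 67 and 178 and 59, 49, 28 and 123 in IF, 5p first. In mir-77 the ratio was -4.87, -5.62, -0.18 and -4.69 in AL and -1.24, -1.27, 1.48 and -2.70 in IF, higher in IF on each day (2.91 ± 0.67, limma adjusted p = 0.0118), and in mir-58a it was higher on each day as well (1.59 ± 0.42, limma adjusted p = 0.0207). The 5p arm of mir-58a is a trace product, with 30, 54, 64 and 75 reads in AL and 25, 73, 117 and 106 in IF. In mir-37 the ratio was -7.41, -11.08, -10.21 and -10.90 in AL and -9.42, -12.98, -15.88 and -15.47 in IF. It was lower in IF for mir-37 (-3.54 ± 0.74, limma adjusted p = 0.00933), mir-39 (-2.53 ± 0.70, limma adjusted p = 0.025) and mir-49 (-1.90 ± 0.57, limma adjusted p = 0.0375), the 3 hairpins among them whose 3p arm rose. Their 5p arms were rare in IF, with 166, 18, 0 and 3 reads for mir-37, 16, 16, 19 and 10 for mir-39 and 3, 12, 2 and 2 for mir-49, so that the size of these differences rests on few reads. Leaving out the AL or the IF library of day 6 left 1 hairpin called by limma, with 11 at an unadjusted p under 0.05 in either case; where both arms had 100 reads in 4 libraries, 3 of 20 did.

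**Figure D5:**
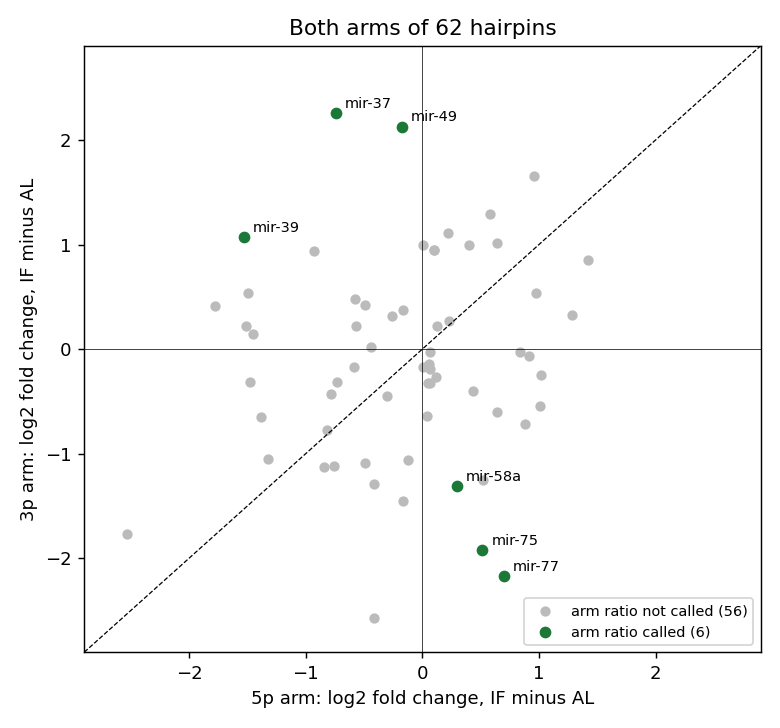
Log2 fold change of IF minus AL of the 3p arm against that of the 5p arm for 62 hairpins with both arms tested; the dashed line marks equal change. The 6 hairpins whose arm ratio differed by limma (green) lie in the quadrants where the arms have opposite signs.

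Of the 11 miRNAs listed for lifespan phenotypes edgeR called 0, with 6 at an unadjusted p under 0.05; DESeq2 called 3, the lower miR-71-5p, miR-80-3p and miR-83-3p, and limma-voom 0. Over all 212 tested miRNAs, edgeR called 30, 66 had an unadjusted p under 0.05 and DESeq2 called 51. The median of the 11 was -0.32, with 5 values above 0 and 6 below. miR-228-5p, a glial miRNA whose loss lengthens life, stood at 10199, 17161, 52027 and 76085 CPM in AL and 39468, 60234, 63110.2 and 61594 CPM in IF, above AL on days 4, 6 and 8 and below it on day 10 (0.88 ± 0.41, edgeR adjusted p = 0.151). miR-34-5p had 0.44 ± 0.37. The muscle miRNA miR-1-3p was lower in IF on 4 of 4 days, at 11733, 7919, 94859 and 4724 CPM in AL and 4226, 7498, 58008 and 2289 CPM in IF, without a call (-0.78 ± 0.48, edgeR adjusted p = 0.303). The neuronal miR-791-3p had 0.45 ± 0.47 at about 12.2 CPM in AL. Rarer still were miR-124-5p, higher in IF on 4 of 4 days (1.01 ± 0.41, edgeR adjusted p = 0.113), and lsy-6-3p (0.36 ± 0.55). None of these neuronal miRNAs was called, and the opposite arm miR-124-3p had -0.54. In the mir-50 family no member was called and all 3 values lay above 0, miR-50-5p at 0.28 ± 0.30 and miR-62 at 0.61 ± 0.38; in the mir-251 family miR-251 (-0.98 ± 0.57) and miR-252-5p (-0.84 ± 0.32) were lower in IF on 4 of 4 days without a call by edgeR, while DESeq2 called miR-252-5p. The lin-4, mir-64, mir-72, mir-87, mir-238 and mir-75 families had no edgeR call for the arm with more reads over the 12 libraries; mir-75 enters there by its 5p arm, although in the 8 libraries its called 3p arm, described above, had more reads. Of these families, 4 listed members had an unadjusted p under 0.05; DESeq2 called 2, miR-66-5p and miR-229-5p, and limma-voom 1, miR-66-5p. Among all 212 tested, 66 had an unadjusted p under 0.05 and DESeq2 called 51. The medians of these families ran from -0.54 to 0.41.

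Just outside the threshold lay, besides miR-35-3p, miR-72-3p (1.11 ± 0.36, edgeR adjusted p = 0.0502), miR-5592-3p (-1.11 ± 0.36, edgeR adjusted p = 0.0519), miR-244-5p (-1.59 ± 0.53, edgeR adjusted p = 0.0596) and miR-66-5p (-1.003 ± 0.34, edgeR adjusted p = 0.0624). miR-66-5p, an abundant miRNA of the mir-64 family, stood at 78023, 32770.2, 103863 and 45793 CPM in AL and 20734, 15619, 100076 and 23804 CPM in IF, nearly equal on day 8 and lower in IF on the other days. miR-244-5p was lower in IF on each day, at 527, 164, 98.99 and 249.6 CPM in AL and 38.1, 42.7, 71.1 and 108 CPM in IF, with its widest gap on day 4.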

How the data were processed

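Small RNA of 18 to 30 nt was cut from a 6% polyacrylamide gel and made into libraries with an Illumina small RNA kit, version 1.5, per the labels' protocols. Per the file headers, each deposited file lists how many reads fell on a mature miRNA of a precursor, as unscaled counts. No source used here names the aligner, miRNA release or genome build. Entries of 1 mature name were collapsed here to the highest count, a loss of 0.219% of reads or less. A floor of 3 reads equals 0.583 to 1.14 CPM of total reads, covering counting error only. Counts were tested with edgeR 4.0.16 (quasi-likelihood, TMM factors 0.474 to 1.63) in R 4.3.3, using diet plus day (both factors) and 12 libraries, those of days 4 to 10, Benjamini-Hochberg adjustment over all 212 miRNAs and a two-sided threshold of 0.05. The SE is the log2 fold change over the square root of its F statistic, and daily log2 ratios use 2 added reads. Slopes used day as a number by diet, besides day as a factor. Arm ratios used limma 3.58.1 with a trend; DESeq2 1.42.0 and limma-voom were alternatives. The tests were run on simulated data first. For IF against AL, 7 of 20 changes of 2-fold and 18 of 20 of 4-fold were recovered. For slopes, 4 of 20 changes of 0.5 log2 units per day and 19 of 20 of 1 unit were recovered. Of 10 arm ratios changed 4-fold, 5 were recovered. A missing call at the smaller sizes thus says little. The number in the titles stands for the day, so it pairs the libraries: after removal of diet means, AL and IF of a day correlated at 0.56 to 0.88, other days at -0.51 to 0.32. Removing the mean of each diet itself pushes correlations between different days downward, so this contrast is partly built in.

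Hairpins were matched by name to WBcel235 (Ensembl release 115), 247 of 250, and grouped where at most 10000 bp apart on a strand; coordinates are 1-based. Mature sequences are not used here. Members, lists and tests were chosen with earlier results of these data known. Named are the called miRNAs, the 5 just outside the threshold, the 10 most abundant, list members, at most 10 slopes and the called arm ratios. In lists each hairpin stands for the arm with more reads over the 12 libraries.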

Additional observations from a re-analysis of the deposited data

Results flagged for a closer look

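The IF to AL log2 ratio of miR-254-3p on day 4, 0.786, stood apart from the other days, which ranged from 1.83 to 1.95; it was the 1 value beyond Dixon's limit among 45 sets of 4 values, where chance flags about 1 set in 20. The slopes of IF and AL on day differed by edgeR's test for the 10 miRNAs named for it. Per day, the difference was -0.884 log2 units for miR-64-5p, -0.573 for miR-45-3p, -0.573 for miR-44-3p, -0.620 for miR-241-5p and -0.746 for miR-65-3p, where IF ended relatively lower. It was 0.757 for miR-238-5p, 0.733 for miR-1829b-5p, 0.646 for miR-236-3p, 0.615 for miR-239a-5p and 0.605 for miR-67-3p, where IF ended relatively higher.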

How the results depend on the processing

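None of the 30 called miRNAs changed direction under any of the up to 28 alternatives that gave it a value, and 23 of the 30 passed under all 3 other scalings, DESeq2 and limma-voom. The count of 30 became 51 with DESeq2, 47 at an adjusted p under 0.10, 14 with only the 8 AL and IF libraries and the replicate block, 6 without all libraries of day 6, and 0 with day as a number (20 at an unadjusted p under 0.05) or with no replicate block (17 at an unadjusted p under 0.05). Leaving out 1 library gave 7 to 36. The count of 22 slopes became 13 with total reads as the scaling and 0 with no replicate block (5 at an unadjusted p under 0.05), and 0 to 27 with 1 library left out. The count of 6 arm ratios became 3 where both arms had 100 reads and 0 with no replicate block (3 at an unadjusted p under 0.05), and 1 to 8 with 1 library left out. The sign of miR-84-5p turned with the stricter filter (-0.132), no replicate block (-0.314), day as a number (-0.0432) and without day 4 (-0.300) or day 6 (-0.165); with 1 library left out it ran from -0.244 to 0.391. The cause of these changes was not tested, apart from the fewer samples or miRNAs that some alternatives use. Depth limits the rare miRNAs: 45 of the 212 averaged under 10 CPM in both diets, 3 of them called.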

Other observations

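The 12 miRNAs called lower held 70.4, 40.7, 58.1 and 55.1% of the reads in AL and 37.4, 17.8, 38.5 and 45.4% in IF on days 4, 6, 8 and 10. The 18 called higher held 1.39, 3.06, 0.602 and 1.92% and 8.40, 9.47, 3.21 and 7.82%. The effective number of miRNAs, the exponential of the Shannon entropy of the read shares, was 5.27, 17.5, 10.5 and 9.81 in AL and 10.8, 23.3, 16.7 and 13.4 in IF, higher in IF on 4 of 4 days. The calls were chosen from the same libraries, so these shares describe them and test nothing.

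Of the 30 called miRNAs, 13 of the 18 higher and 4 of the 12 lower have hairpins on chromosome X, which holds 76 of the 212 tested. Of the 13, 8 come from the mir-4807 cluster. Outside it, 5 of 67 tested miRNAs of the chromosome were called higher (7.46%), against 8.49% over all tested. Against CR, the remaining diet, IF had 0 called of 212 by edgeR (0%; smallest adjusted p = 0.42), with 18 at an unadjusted p under 0.05.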
